A study of Mus musculus with 12 samples.

Results

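The small leucine-rich proteoglycans are a family of secreted matrix proteins, and 8 of their genes (Dcn, Bgn, Aspn, Lum, Fmod, Prelp, Omd and Ogn) were followed here in bulk RNA sequencing of mouse hearts. The genes were taken by family membership and found by gene number. All 8 were among the 27179 genes of the count table, and all 8 passed the filter on low counts that left 13626 genes for testing. The hearts came from 12 mice in 4 groups of 3, taken at 15 weeks of age. Their mothers had breathed filtered air or diesel exhaust from day E0.5 to E17.5 of the pregnancy, and the offspring were raised in filtered air. Surgery at 12 weeks was either sham or transverse aortic constriction (TAC), which narrows the aortic arch over a 27-gauge needle and so raises the pressure that the left ventricle works against. The groups were filtered air with sham surgery, filtered air with TAC, diesel exhaust with sham surgery and diesel exhaust with TAC. The sources used here do not give genotype, strain, sex or litter, so hearts of a group may share a litter, and p-values measure the spread between these hearts. Libraries were sequenced 4 per run, and the run of each heart is not given either, so hearts of a group may also share a run. Replicate numbers only name a heart and pair none.

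Each protein of this family has a core of leucine-rich repeats that binds collagen fibrils, and most carry glycosaminoglycan side chains. Decorin, biglycan and asporin form the class related to chondroitin and dermatan sulfate chains, lumican, fibromodulin, PRELP and osteomodulin the class related to keratan sulfate, and osteoglycin the class it shares with epiphycan and opticin. Chondroadherin, nyctalopin and podocan belong to further classes. In the heart the family is made mainly by fibroblasts, where it controls how thick collagen fibrils grow and holds growth factors such as those of the TGF-beta group. Free biglycan and decorin are also known as signals that bind Toll-like receptors.

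The libraries held 5534685 to 13265816 counts each, of which mitochondrially encoded genes took 18.3% to 32.4%. Levels are CPM, counts scaled to a common library size by the trimmed mean of M values, given as mean ± SD over n = 3 hearts. A count of 3 equals 0.226 to 0.542 CPM before scaling, which among the 8 genes only Omd reached, counted 2 to 37 times per library. Fmod was counted 7 to 202 times. The group difference is a log2 fold change ± standard error (SE) from edgeR's quasi-likelihood test, with Benjamini-Hochberg adjustment over the 13626 genes and a threshold of 0.05. Filtered air TAC replicate 2 stood apart: each of the 8 genes was highest in it among the 3 libraries of its group, by a median of 0.53 on the log2 scale above the group mean. Diesel exhaust sham replicate 2 had the fewest counts and the lowest mitochondrial share, against 25.1% to 32.4% in the other 11 libraries. Of the 8 genes 1 was highest and 3 were lowest in it within its group. Unless a library is said to be left out, calls are from the fit on all 12 libraries. Many calls in filtered air are also given without the first of these libraries, and many after diesel exhaust without the second.

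Most of the 8 genes lie in clusters in the mouse build GRCm38. Dcn at chr10:97479500-97518163 is followed, 47.3 kb away, by Lum at chr10:97565501-97572703. Aspn at chr13:49544443-49567565, Omd at chr13:49582462-49592612 and Ogn at chr13:49608015-49624501 follow one another at gaps of 14.9 and 15.4 kb. Prelp at chr1:133910304-133930102 and Fmod at chr1:134037254-134048280 are 107.2 kb apart, and Bgn stands alone at chrX:73483601-73495936. RefSeq places no whole protein-coding gene in any of these gaps. All 3 genes of the chromosome 13 cluster lie within the span of Cenpp, a centromere protein gene, but none of their exons shares a base with a Cenpp exon in GENCODE M21, and Cenpp was counted 6 to 20 times per library. The sources used here do not say whether the counting used strand.

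The sequence upstream of the start is shown for Bgn, which had the smallest p of the 8 after TAC, for Fmod, which had the highest fold, and for Aspn and Ogn, which share a cluster but responded differently. The RefSeq promoter table of GRCm38.p6 matched 6 of the 8 genes, all but Dcn and Lum. The runs below are the 250 bases before the RefSeq start, 5′ to 3′ on the plus strand, at chrX:73483351-73483600 for Bgn, chr1:134037004-134037253 for Fmod, chr13:49607765-49608014 for Ogn and chr13:49544193-49544442 for Aspn. They overlap no exon of their gene in GENCODE M21. Capitals mark exact matches on either strand to any of 5 motifs. They are the GC box, written GGGCGG, the TATA box, written as the letters TATAAA, the short core of the element bound by Smad proteins, which reads GTCTG, and the core bound by TEAD factors, which reads GGAATG. The last is the AP-1 site, searched with any base in its middle.
Bgn: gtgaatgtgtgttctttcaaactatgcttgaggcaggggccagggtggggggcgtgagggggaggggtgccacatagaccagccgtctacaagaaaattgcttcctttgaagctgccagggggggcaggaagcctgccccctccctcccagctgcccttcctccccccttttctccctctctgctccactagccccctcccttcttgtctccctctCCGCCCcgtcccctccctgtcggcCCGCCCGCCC
Fmod: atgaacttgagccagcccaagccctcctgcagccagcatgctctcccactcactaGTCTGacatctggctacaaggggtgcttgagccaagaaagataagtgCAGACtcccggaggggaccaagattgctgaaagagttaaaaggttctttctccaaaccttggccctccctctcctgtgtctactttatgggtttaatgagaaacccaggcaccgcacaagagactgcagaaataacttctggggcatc
Ogn: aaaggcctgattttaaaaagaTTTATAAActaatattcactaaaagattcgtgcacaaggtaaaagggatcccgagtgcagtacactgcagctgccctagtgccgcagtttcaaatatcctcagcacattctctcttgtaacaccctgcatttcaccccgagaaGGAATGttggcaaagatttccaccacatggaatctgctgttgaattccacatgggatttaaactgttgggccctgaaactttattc
Aspn: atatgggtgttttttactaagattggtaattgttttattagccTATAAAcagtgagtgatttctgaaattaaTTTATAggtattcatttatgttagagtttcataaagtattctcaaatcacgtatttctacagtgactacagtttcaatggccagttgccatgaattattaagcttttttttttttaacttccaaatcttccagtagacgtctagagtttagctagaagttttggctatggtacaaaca

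Positions are counted back from the start, so that -1 is the last base printed. The Bgn run holds 3 GC boxes on the minus strand, at -34 to -29, -10 to -5 and -6 to -1, the last 2 overlapping by 2 bases. A GC box was found in 32.7% of all 32851 promoters of the table over the same 250 bases. The Fmod run holds the short Smad core GTCTG at -195 on the plus strand and again at -148 on the minus strand, a match found in 42.2% of promoters. The Aspn run holds TATAAA at -207 on the plus and -178 on the minus strand. The Ogn run holds it at -227 and, overlapping on the other strand, at -229, with a TEAD site at -86. TATAAA was found in 12.4% and the TEAD core in 12.6% of promoters. The AP-1 site matched none of these 4 runs, against 6.75% of promoters. Guanine and cytosine made up 64.4% of the Bgn run, 51.2% of Fmod, 42% of Ogn and 30% of Aspn, beside a median of 52.4% over all promoters with quartiles of 45.2% and 61.2%. These matches describe letters and are not binding sites.

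In hearts of filtered air offspring, 4 of the 8 genes rose with TAC: Bgn, Lum, Prelp and Aspn. Over all genes tested, 0.609% were called higher in this comparison. In hearts of diesel exhaust offspring 6 of 8 rose, Dcn and Fmod in addition, beside 1.75% of all genes. Averaged over both exposures 7 of 8 rose, beside 4.1% of all genes, and 0 fell, beside 3.91%. Ogn alone did not pass. The median log2 fold change of the 8 genes was 1.27 in filtered air and 1.76 after diesel exhaust, beside medians of 0.0051 and 0.00061 over all genes tested. The scaling of libraries itself places the median of all genes near 0. Every TAC library lay above every sham library of its exposure for 6 of 8 genes in filtered air, beside 8.2% of all genes, and for 7 of 8 after diesel exhaust, beside 11.1%.

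**Figure D1:**
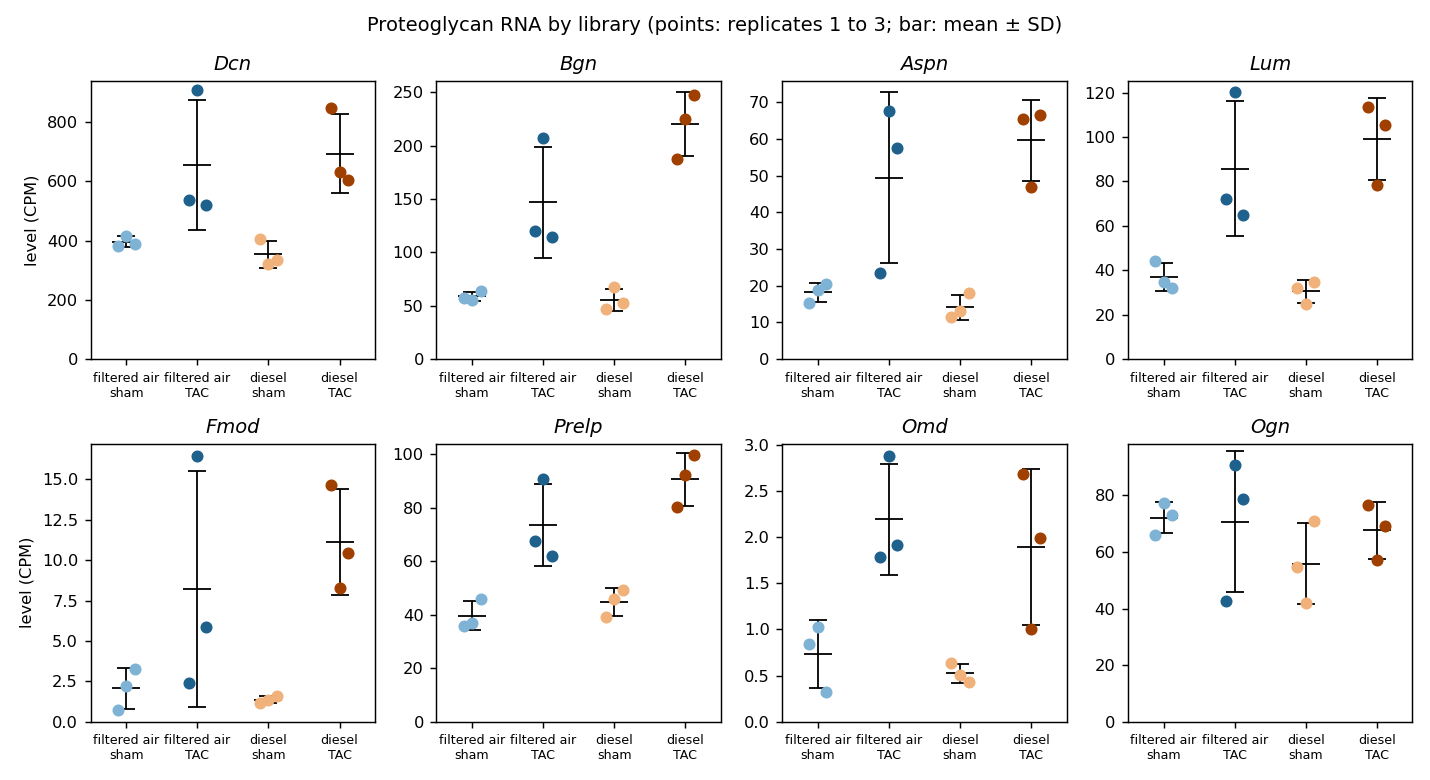
Level of each gene in CPM on a linear axis from 0, by group, with 1 point per heart (replicates 1 to 3 from left to right) and a bar for the mean ± SD of 3 hearts. The TAC hearts of Bgn, from 114 to 248 CPM, lie above all sham hearts, from 46.7 to 67.2 CPM, while the points of Ogn overlap between sham and TAC.

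Bgn encodes biglycan, a matrix protein with chondroitin or dermatan sulfate chains that can also signal through Toll-like receptors. In filtered air its level was 57.2, 55.5 and 63.4 CPM in the sham hearts and 120, 207 and 114 CPM in the TAC hearts. The diesel exhaust values were 46.7, 67.2 and 52.4 CPM in sham and 188, 225 and 248 CPM in TAC hearts. Every TAC heart of either exposure was above every sham heart. Bgn rose with TAC by 1.33 ± 0.21 (SE) on the log2 scale in filtered air (edgeR, adjusted p = 0.00206) and by 1.99 ± 0.21 after diesel exhaust (edgeR, adjusted p = 1.35e-05). It was the only one of the 8 that passed in filtered air whichever library was left out, with adjusted p up to 0.0188 by edgeR.

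Dcn encodes decorin, which binds collagen fibrils and TGF-beta. Its level in filtered air was 380, 416 and 390 CPM in sham and 535, 908 and 520 CPM in TAC hearts. In diesel exhaust offspring the values were 405, 320 and 335 CPM in sham and 846, 630 and 605 CPM in TAC hearts. The sham and TAC hearts did not overlap in either exposure. The log2 difference in filtered air was 0.73 ± 0.21 and did not pass (edgeR, adjusted p = 0.115, 95% interval 0.30 to 1.16). DESeq2 called it (adjusted p = 0.0492), as did edgeR without the filter on low counts (adjusted p = 0.0181). Leaving out filtered air TAC replicate 2 lowered the difference to 0.42 (adjusted p = 0.600). After diesel exhaust Dcn rose by 0.97 ± 0.21 (edgeR, adjusted p = 0.00966), a call lost without diesel exhaust sham replicate 3 (adjusted p = 0.0580) or diesel exhaust TAC replicate 1 (adjusted p = 0.0584).

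Aspn encodes asporin, a relative of decorin that binds collagen and TGF-beta but lacks the usual glycosaminoglycan site. Filtered air hearts held 15.3, 18.9 and 20.4 CPM in sham and 23.3, 67.7 and 57.5 CPM in TAC hearts. The diesel exhaust offspring had 11.4, 13 and 17.9 CPM in sham and 65.5, 46.9 and 66.6 CPM in TAC hearts. No TAC heart overlapped the sham hearts of its exposure, and the lowest, filtered air TAC replicate 1, lay close above them. Aspn rose by 1.44 ± 0.31 in filtered air (edgeR, adjusted p = 0.0378) and by 2.08 ± 0.32 after diesel exhaust (edgeR, adjusted p = 0.00139). The call in filtered air was lost in 7 of the 12 fits that left out a library. With filtered air sham replicate 1, 2 or 3 dropped the adjusted p was 0.210, 0.112 or 0.116, and with filtered air TAC replicate 2 or 3 dropped it was 0.193 or 0.105. It was 0.0679 without diesel exhaust sham replicate 2 and 0.0524 without diesel exhaust TAC replicate 1. It was also lost by limma voom (adjusted p = 0.137) and with only the 2 groups compared in the fit (adjusted p = 0.112).

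Lum encodes lumican, a keratan sulfate proteoglycan that limits the width of collagen fibrils. The filtered air level was 44.1, 34.7 and 32 CPM in sham and 72.2, 120 and 64.8 CPM in TAC hearts. Diesel exhaust offspring stood at 32, 24.6 and 34.8 CPM in sham and 114, 78.3 and 105 CPM in TAC hearts. Sham and TAC hearts did not overlap. Lum rose by 1.21 ± 0.23 in filtered air (edgeR, adjusted p = 0.00794) and by 1.70 ± 0.23 after diesel exhaust (edgeR, adjusted p = 0.000145). The filtered air call was lost without sham replicate 2 (adjusted p = 0.0514), sham replicate 3 (adjusted p = 0.0758) or TAC replicate 2 (adjusted p = 0.0934) of that exposure.

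Fmod encodes fibromodulin, which binds collagen and is known to direct lysyl oxidase to its cross-linking sites. Its filtered air values were 0.741, 2.20 and 3.24 CPM in sham and 2.38, 16.4 and 5.85 CPM in TAC hearts. The level after diesel exhaust was 1.15, 1.34 and 1.59 CPM in sham and 14.7, 8.26 and 10.4 CPM in TAC hearts. The groups overlapped in filtered air, where TAC replicate 1 lay below sham replicate 3, and did not overlap after diesel exhaust. Fmod rose by 3.03 ± 0.63 after diesel exhaust (edgeR, adjusted p = 0.0121), the highest fold among the 8 genes. This call was lost without diesel exhaust sham replicate 1 (adjusted p = 0.0864), 2 (adjusted p = 0.0620) or 3 (adjusted p = 0.0604), and by limma voom (adjusted p = 0.0714). In filtered air the difference was 2.04 ± 0.60 and did not pass (edgeR, adjusted p = 0.149), but passed by DESeq2 (adjusted p = 0.0304) and without filtered air TAC replicate 1 (adjusted p = 0.0175). Without filtered air TAC replicate 2 it was 1.04 (adjusted p = 0.693).

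Prelp encodes PRELP, a family member with a basic end that binds heparan sulfate and anchors basement membranes to collagen. In filtered air hearts it stood at 35.9, 37.0 and 45.9 CPM in sham and 67.5, 90.7 and 61.9 CPM in TAC hearts. Values after diesel exhaust were 39.1, 46.0 and 49.2 CPM in sham and 80.1, 92.2 and 99.7 CPM in TAC hearts. All TAC hearts were above all sham hearts. Prelp rose by 0.89 ± 0.18 in filtered air (edgeR, adjusted p = 0.0178) and by 1.02 ± 0.18 after diesel exhaust (edgeR, adjusted p = 0.00258). In filtered air it did not pass without sham replicate 1 (adjusted p = 0.106), sham replicate 2 (adjusted p = 0.0883) or TAC replicate 2 (adjusted p = 0.168) of that exposure, nor with only the 2 groups compared in the fit (adjusted p = 0.0559).

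Omd encodes osteomodulin, known mainly from bone and tooth matrix, and was the lowest of the 8. Its level in filtered air was 0.847, 1.03 and 0.324 CPM in sham and 1.79, 2.88 and 1.91 CPM in TAC hearts. With diesel exhaust they were 0.638, 0.501 and 0.433 CPM in sham and 2.68, 1.00 and 1.99 CPM in TAC hearts. Within each exposure the groups did not overlap. The counts behind these levels were 2 to 8 in sham hearts and 9 to 37 in TAC hearts. Neither the difference of 1.54 ± 0.68 in filtered air (edgeR, adjusted p = 0.388) nor that of 1.83 ± 0.71 after diesel exhaust (edgeR, adjusted p = 0.183) passed. Averaged over exposure Omd rose by 1.68 ± 0.49 (edgeR, adjusted p = 0.0362). That call was lost by limma voom (adjusted p = 0.0684) and without any of 9 of the 12 libraries: filtered air sham replicate 1 or 3, filtered air TAC replicate 2 or 3, any diesel exhaust sham replicate, or diesel exhaust TAC replicate 1 or 3. The highest adjusted p was 0.121, without filtered air TAC replicate 2, where the filtered air difference was 1.30 (adjusted p = 0.789).

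Ogn encodes osteoglycin, also called mimecan, a fibril-binding protein. Filtered air values were 66.2, 77.2 and 73.2 CPM in sham and 42.8, 90.6 and 78.6 CPM in TAC hearts. The diesel exhaust values were 54.6, 42.1 and 71.0 CPM in sham and 76.7, 57.0 and 69.1 CPM in TAC hearts. Sham and TAC hearts overlapped in both exposures, and filtered air TAC held both the highest and nearly the lowest heart. The TAC difference was -0.03 ± 0.23 in filtered air (edgeR, adjusted p = 0.982, 95% interval -0.52 to 0.46) and 0.27 ± 0.23 after diesel exhaust (edgeR, adjusted p = 0.629, 95% interval -0.21 to 0.76). The upper ends of these intervals lie below the estimates for the other 7 genes in the same exposure.

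**Figure D2:**
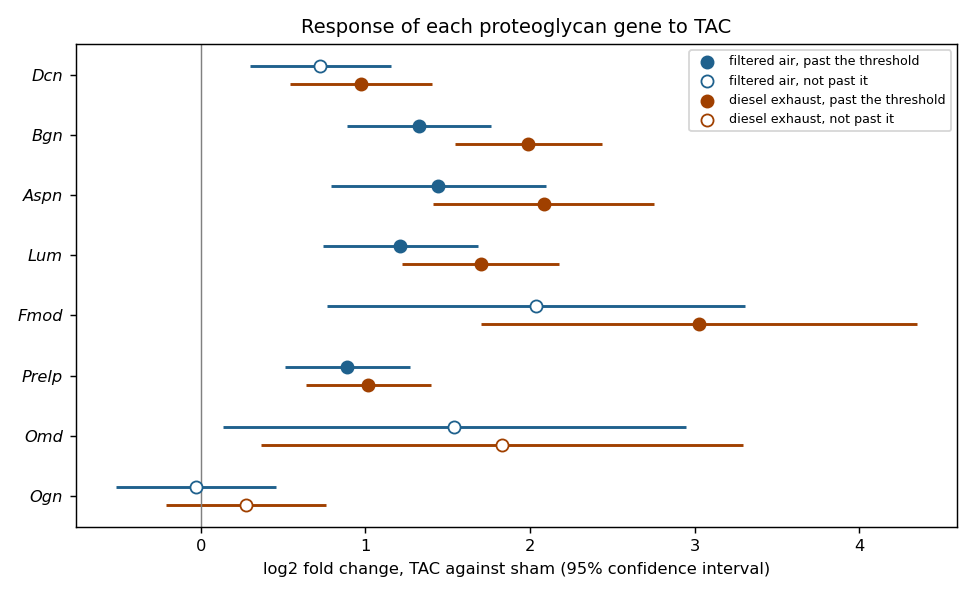
Log2 fold change of TAC against sham for each gene (x axis), with 95% confidence intervals, in filtered air (blue) and diesel exhaust (brown) offspring, where filled points passed the threshold. Estimates run from -0.03 for Ogn to 2.04 for Fmod in filtered air, and from 0.27 to 3.03 for the same 2 genes after diesel exhaust.

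Without filtered air TAC replicate 2, the filtered air count fell from 4 to 1 of the 8 genes, Bgn, with a log2 fold change of 1.00 (edgeR, adjusted p = 0.0188). The log2 differences of Lum, Prelp and Aspn were then 0.89, 0.71 and 1.15. Over all genes the same step took the calls from 113 to 39. Dropping filtered air sham replicate 1 or 3 gave a count of 2, dropping sham replicate 2 gave 1, and dropping filtered air TAC replicate 1 gave 5. After diesel exhaust the count stayed between 4 and 6 when any library was left out. The lowest, 4, came without diesel exhaust sham replicate 3. Without diesel exhaust sham replicate 2 it was 5, with Fmod lost, and the log2 differences of the other 5 ran from 0.91 for Dcn to 2.15 for Bgn.

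**Figure D3:**
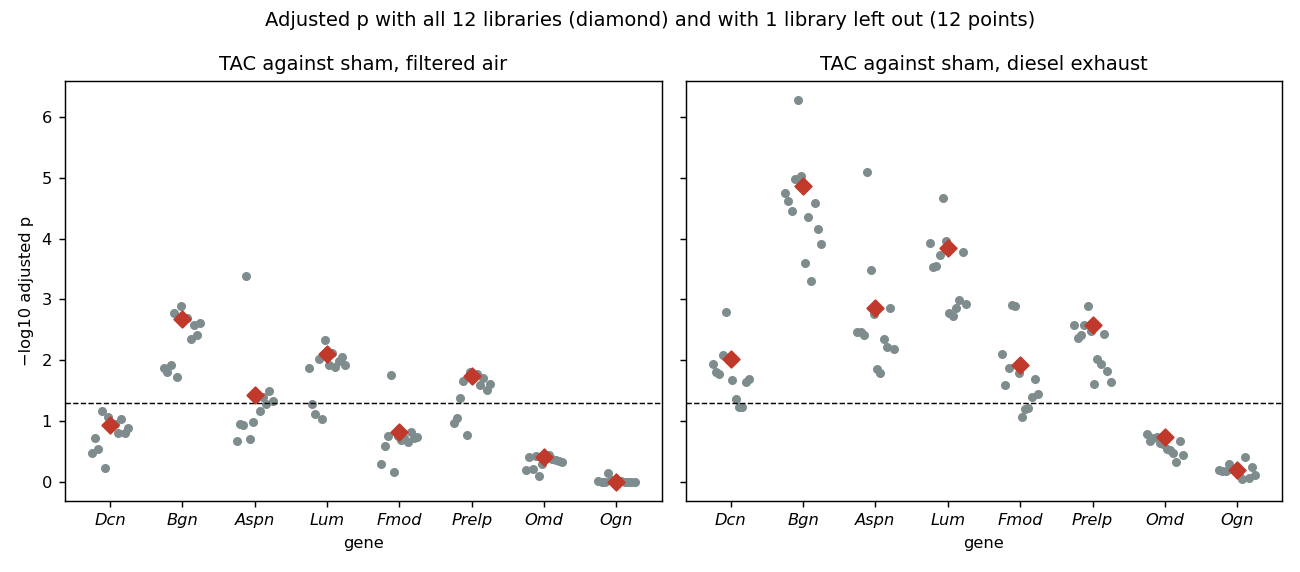
Strength of each TAC call as -log10 of the adjusted p (y axis), with all 12 libraries (red diamond) and with each library left out in turn (12 grey points), and the threshold of 0.05 as a dashed line. In filtered air all points of Bgn stay above the line, and 7 of the 12 points of Aspn fall below it.

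Per kilobase of merged exon, which allows levels of different genes to be compared, Dcn was first in every group. It stood at 204 ± 9.54 CPM per kb in filtered air sham, 338 ± 113 in filtered air TAC, 182 ± 23.4 in diesel exhaust sham and 358 ± 68.5 in diesel exhaust TAC (SD, n = 3). In filtered air sham hearts Ogn (28.1 ± 2.18 CPM per kb) and Bgn (24.3 ± 1.73) followed with overlapping libraries, then Lum (15.1 ± 2.61), Prelp (11.0 ± 1.52) and Aspn (7.75 ± 1.11) without overlap. Fmod (0.661 ± 0.403) and Omd (0.326 ± 0.162) came last and overlapped each other. In diesel exhaust sham hearts the neighbours that overlapped were Bgn and Ogn, and Lum and Prelp. In diesel exhaust TAC hearts the order was Dcn, Bgn (91.0 ± 12.5 CPM per kb) and Lum (40.5 ± 7.54) without overlap. Ogn (26.4 ± 3.88), Aspn (25.3 ± 4.72) and Prelp (25.1 ± 2.74) then lay within each other's spread, above Fmod (3.56 ± 1.04) and Omd (0.841 ± 0.375). In filtered air TAC hearts Bgn, Lum, Ogn and Aspn each overlapped the next in the order, which ended with Prelp, Fmod and Omd. Prelp lay above Fmod without overlap, and Fmod overlapped Omd.

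Together the 8 genes took 0.0545%, 0.0624% and 0.0577% of all counts in the filtered air sham hearts and 0.0847%, 0.153% and 0.0916% in the filtered air TAC hearts. The shares were 0.0562%, 0.0556% and 0.0532% in diesel exhaust sham and 0.144%, 0.123% and 0.133% in diesel exhaust TAC hearts. Every TAC heart was above every sham heart. Dcn made up 50.2% to 68.6% of the family's counts in any heart. The share of Ogn was 8.18% to 12.6% in sham and 4.94% to 8.69% in TAC hearts, and that of Bgn 7.91% to 13.1% in sham and 12.6% to 20.5% in TAC hearts.

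Whether the genes changed by the same fold was asked with count ratios inside each library, which do not depend on how libraries are scaled. There were 0.150, 0.133 and 0.163 Bgn counts per Dcn count in filtered air sham hearts and 0.224, 0.228 and 0.220 in filtered air TAC hearts. After diesel exhaust the ratios were 0.115, 0.210 and 0.156 in sham and 0.222, 0.357 and 0.409 in TAC hearts. All 6 TAC hearts were above all 6 sham hearts, although diesel exhaust sham replicate 2 came close to the TAC hearts. The log2 ratio was 0.81 higher with TAC (exact two-sided permutation test within exposures, p = 0.005, the smallest of 400 relabellings). This pair was picked with earlier results of these data known, and its exact p-values make no allowance for that choice. With Benjamini-Hochberg adjustment over the 28 pairs described below, its adjusted p was 0.0156. Leaving out any library kept the difference between 0.70 and 0.94, with exact p up to 0.01.

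**Figure D4:**
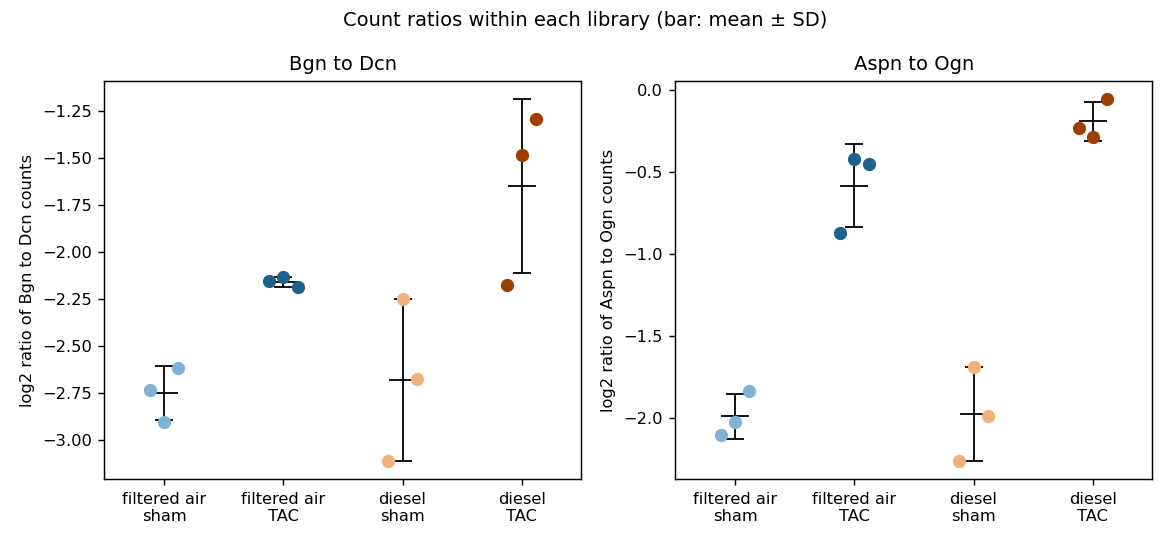
Log2 ratio of Bgn to Dcn counts and of Aspn to Ogn counts in each heart (y axes), by group, with the mean ± SD of 3 hearts. In both panels the 6 TAC hearts lie above the 6 sham hearts, from -2.19 to -1.29 against -3.12 to -2.25 for Bgn to Dcn.

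All 28 pairs of the 8 genes were then compared in the same way, a choice made after the levels had been seen. With Benjamini-Hochberg adjustment over the 28 exact permutation tests, 15 pairs differed between TAC and sham. Ogn differed from each of the other 7 genes, with exact p from 0.005 to 0.01 and adjusted p from 0.0156 to 0.028, and it did so whichever library was left out. There were 0.209 to 0.311 Aspn counts per Ogn count in sham hearts and 0.547 to 0.964 in TAC hearts, with no overlap between these neighbours on chromosome 13. TAC lowered the ratio of Dcn to 5 of the others (Bgn, Lum, Fmod, Aspn and Omd) and raised its ratio to Ogn. Sham and TAC hearts did not overlap in its ratios to Bgn and Lum, but overlapped in those to Fmod, Aspn, Omd and Ogn. The ratios to Fmod, Aspn and Omd each had an adjusted p of 0.0323 by the exact permutation test. The ratio of Dcn to Prelp differed by 0.13 on the log2 scale, which did not pass (exact permutation p = 0.45, adjusted p = 0.525). No pair among Bgn, Lum, Aspn, Fmod and Omd passed, which does not show that they changed equally. The log2 ratio of Lum to Fmod differed by -0.92 (exact permutation p = 0.095, adjusted p = 0.14). That of Fmod to Omd, the 2 genes with the lowest counts, differed by 0.76 (exact permutation p = 0.21, adjusted p = 0.28). Over the fits that left out a library, 10 to 17 of the 28 pairs passed.

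**Figure D5:**
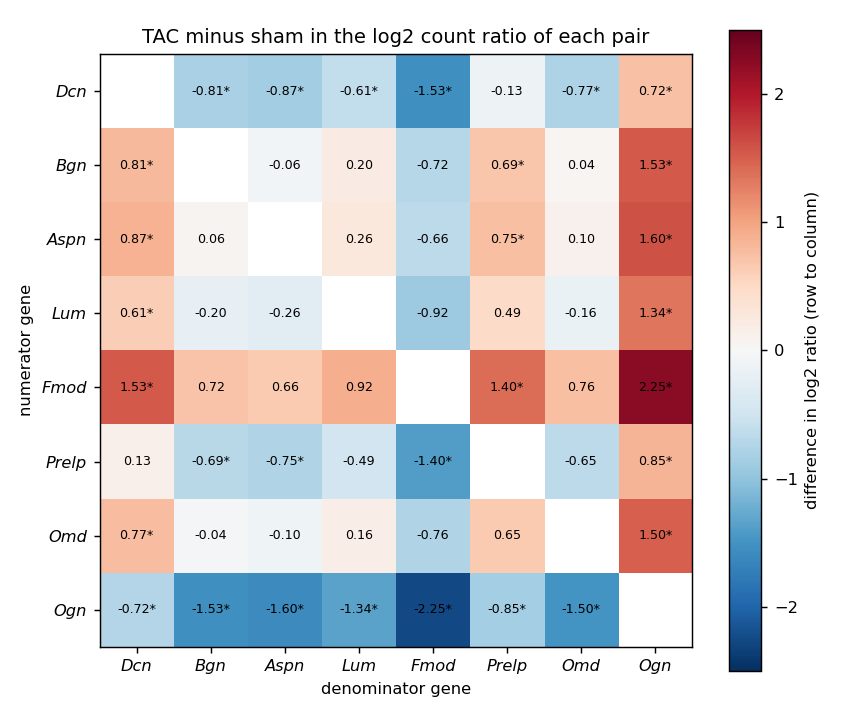
Difference between TAC and sham in the log2 count ratio of the row gene to the column gene, averaged over both exposures, with a star where the exact permutation test passed after adjustment over 28 pairs. The Ogn row and column are starred throughout, from 0.72 against Dcn to 2.25 against Fmod in size.

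For none of the 8 genes did diesel exhaust and filtered air hearts separate. By edgeR 0 of the 8, and 0.0% of all genes tested, passed in sham hearts, in TAC hearts, averaged over surgery, or for the interaction of exposure with surgery. At an unadjusted p under 0.05 the counts over all genes were 503 (3.69%) in sham hearts, 255 (1.87%) in TAC hearts, 452 (3.32%) averaged and 327 (2.4%) for the interaction. DESeq2 called 0, 1, 0 and 1 genes in these comparisons and limma voom 0 in each, none of them among the 8. No gene of the 8 had groups that did not overlap, beside 4.0% of genes higher and 3.6% lower in sham hearts and 3.96% and 3.76% in TAC hearts.

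In sham hearts the diesel exhaust difference was closest to 0 for Bgn, at -0.08 ± 0.21 (95% interval -0.52 to 0.35). It was -0.16 ± 0.21 for Dcn (-0.59 to 0.26), -0.28 ± 0.23 for Lum (-0.75 to 0.20) and 0.18 ± 0.18 for Prelp (-0.21 to 0.56). For Ogn it was -0.37 ± 0.23 (-0.86 to 0.12) and for Aspn -0.37 ± 0.32 (-1.04 to 0.31). All 8 sham intervals held 0, and those of Fmod (-2.0 to 0.90) and Omd (-2.06 to 1.09) were wide enough to hold a 4-fold decrease. In TAC hearts Bgn was higher by 0.58 ± 0.21 after diesel exhaust (147 ± 51.9 against 220 ± 30.2 CPM), with an unadjusted p of 0.0102 and an adjusted p of 1.00 by edgeR. Leaving out a library gave from 0.43 (without filtered air TAC replicate 3) to 0.91 (without filtered air TAC replicate 2). The adjusted p was never below 0.332 by edgeR in these fits. Filtered air TAC replicate 2, at 207 CPM, lay inside the diesel exhaust range of 188 to 248 CPM. The other 7 genes had TAC intervals that held 0, from -0.07 to 0.68 for Prelp to -1.48 to 1.08 for Omd.

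The log2 difference of TAC from sham was estimated as higher after diesel exhaust than in filtered air for all 8. The median interaction was 0.40 on the log2 scale, beside -0.017 over all genes tested. The 8 genes share their hearts, so these are not 8 separate observations. In sham hearts the diesel exhaust estimates of all but Prelp were below 0, with a median of -0.32 over the 8 genes. The interaction was 0.67 ± 0.29 for Bgn (unadjusted p = 0.0344, adjusted p = 1.00 by edgeR) and 0.64 ± 0.43 for Aspn, 0.49 ± 0.32 for Lum and 0.25 ± 0.29 for Dcn, none of which passed. Leaving out a library moved these by over 1.5 times for Dcn, Lum and Aspn. The interaction ran from 0.077 (without diesel exhaust TAC replicate 1) to 0.56 for Dcn, from 0.32 (without filtered air TAC replicate 3) to 0.81 for Lum and from 0.29 (without filtered air TAC replicate 1) to 0.93 for Aspn. The highest value of each came without filtered air TAC replicate 2. That more of the 8 genes passed after diesel exhaust than in filtered air is thus not shown to be a difference between the exposures.

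Of 10 other genes of the family in the table, 4 had enough counts to test. Ecm2, the neighbour of Aspn on chromosome 13, rose after diesel exhaust from 13.7 ± 2.21 CPM in sham to 26.2 ± 2.64 CPM in TAC hearts (0.94 ± 0.25, edgeR, adjusted p = 0.0442), a call lost in 8 of the 12 fits that left out a library. In filtered air its difference was 0.48 ± 0.25 and did not pass (adjusted p = 0.507). Averaged over exposure it rose by 0.71 ± 0.18 (edgeR, adjusted p = 0.0161), a call lost without filtered air TAC replicate 2. Podn, encoding podocan, had differences of -0.09 ± 0.33 and -0.01 ± 0.32. Tsku and Chad did not pass in either exposure. Kera, in the cluster with Dcn and Lum, had 1 count over the 12 libraries, and Optc, next to Prelp, had 4. Epyc, beside Kera, had 0 to 10 counts per library.

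Of the enzymes that build the side chains, none passed within an exposure by edgeR and 1 rose averaged over exposure. Of 22 genes for chondroitin and dermatan sulfate chains, 20 were tested, with median log2 differences of 0.17 in filtered air and 0.27 after diesel exhaust. Dse, the epimerase that makes dermatan sulfate, had differences of 1.05 (adjusted p = 0.123) and 0.74 (adjusted p = 0.208) and rose by 0.89 ± 0.21 averaged over exposure (edgeR, adjusted p = 0.0106). Leaving out a library gave 1 to 3 of the 20 higher in the averaged comparison, 3 without filtered air sham replicate 2 or diesel exhaust sham replicate 2. Of 8 genes for keratan sulfate, 6 were tested and 0 passed in any TAC comparison by edgeR (1, averaged over exposure, without filtered air sham replicate 3), with medians of 0.05 and 0.19. Chst5, a keratan sulfate sulfotransferase gene, had 0 counts in all libraries.

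Among 10 tested genes for removing propeptides and cleaving core proteins, 1 rose in filtered air and 3 after diesel exhaust. Mmp2, a gelatinase that cleaves matrix proteins, rose by 1.24 ± 0.17 in filtered air (edgeR, adjusted p = 0.000546) and by 1.53 ± 0.17 after diesel exhaust (edgeR, adjusted p = 2.18e-05). Pcolce and Pcolce2, enhancers of procollagen processing, rose after diesel exhaust by 1.03 ± 0.25 and 1.25 ± 0.24. Their differences in filtered air, 0.98 (adjusted p = 0.0784) and 0.82 (adjusted p = 0.124), did not pass. Averaged over exposure 5 of the 10 rose, Mmp14 and Adamts1, which encode matrix proteinases, in addition. Mmp2 passed in filtered air without TAC replicate 2 (1.13, edgeR, adjusted p = 0.00536). Pcolce did not pass after diesel exhaust by edgeR without sham replicate 2 (adjusted p = 0.0529), and that call was lost in 5 of the 12 fits that left out a library. Bmp1, the proteinase that removes propeptides, had differences of 0.36 and 0.26 that did not pass.

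Of 17 tested ligands and receptors that bind decorin or biglycan, 2 rose in filtered air and 5 after diesel exhaust. Tlr4, a Toll-like receptor that binds biglycan, rose from 23.5 ± 0.875 to 47.1 ± 13.9 CPM in filtered air (1.00 ± 0.22, edgeR, adjusted p = 0.0250) and by 0.85 after diesel exhaust (edgeR, adjusted p = 0.0316). These Tlr4 calls were lost in 5 and 4 of the 12 fits that left out a library. Cd44, a hyaluronan receptor, rose by 1.35 ± 0.27 in filtered air (edgeR, adjusted p = 0.0150) and differed by 0.93 after diesel exhaust, which did not pass (adjusted p = 0.0638). After diesel exhaust Tgfb2 and Tgfb3, both TGF-beta ligands, rose by 1.67 ± 0.30 and 1.49 ± 0.29. Ccn2, a matrix signalling protein, rose by 1.99 ± 0.40 and Lrp1, an endocytic receptor for decorin, by 0.95 ± 0.18. In filtered air Ccn2 differed by 1.82 (adjusted p = 0.0742) and Lrp1 by 0.70 (adjusted p = 0.0658), and neither passed. Averaged over exposure 10 of the 17 rose. None of the 17 passed in filtered air by edgeR without TAC replicate 2, with Tlr4 at 0.86 (adjusted p = 0.207) and Cd44 at 1.37 (adjusted p = 0.0727), or without sham replicate 1 or 3. After diesel exhaust 4 passed without sham replicate 2, and Ccn2 did not (adjusted p = 0.0539). The Ccn2 call was lost without any 1 of the 6 diesel exhaust libraries. Tgfb1 had differences of 0.50 and 0.64 that did not pass.

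Of the fibrillar collagens whose fibrils these proteins bind, 6 were tested, of which 3 rose in filtered air and 5 after diesel exhaust. Col1a1 rose by 1.42 ± 0.26 and 1.90 ± 0.26 in the 2 exposures, and Col5a2 by 1.93 ± 0.39 and 1.95 ± 0.38. Col3a1 rose by 1.93 after diesel exhaust (edgeR, adjusted p = 0.0473), a call lost in 10 of the 12 fits that left out a library. Its difference of 1.35 in filtered air did not pass (adjusted p = 0.262). None of the 6 passed in filtered air by edgeR without TAC replicate 2, with Col1a1 at 1.18 and Col5a2 at 1.48 (adjusted p = 0.0759 for both), or without any 1 of the sham replicates. The 5 calls after diesel exhaust remained without sham replicate 2, but 2 were left without sham replicate 1 or 3, and 3 without TAC replicate 3. Averaged over exposure the count was 5 whichever library was left out. Of 18 other proteoglycan genes tested, Vcan, encoding versican, rose in both exposures, by 1.61 ± 0.28 and 1.81 ± 0.28. Its filtered air rise was 1.28 without TAC replicate 2 (edgeR, adjusted p = 0.0447), and the call was lost without any 1 of the filtered air sham replicates. Sdc2 and Gpc6, which encode cell-surface heparan sulfate proteoglycans, rose after diesel exhaust by 0.96 ± 0.19 and 1.01 ± 0.26. In filtered air they did not pass, at 0.45 and 0.84, and no interaction passed by edgeR for any gene. The Gpc6 call after diesel exhaust was lost in 4 of the 12 fits that left out a library. Averaged over exposure 6 of the 18 rose and 1, Tgfbr3, fell, or 3 and 0 without filtered air TAC replicate 2. The Tgfbr3 call was lost in 10 of the 12 fits that left out a library.

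Fibroblasts are the main known source of these proteins in the heart. Of 13 fibroblast markers, 3 rose in filtered air, 5 rose and 1 fell after diesel exhaust, and 6 rose and 1 fell averaged over exposure. Their median log2 differences were 0.37 and 0.53 in the 2 exposures, beside 1.27 and 1.76 for the 8 genes. The medians were 1.32 and 1.74 for the 6 fibrillar collagens, and 2.71 and 2.76 for the 9 markers of activated fibroblasts described below. In filtered air 1 of the 13, Mfap5, passed without TAC replicate 2, and 0 without sham replicate 3. Their summed level was 1326 to 1456 CPM in filtered air sham, 1744 to 2505 in filtered air TAC, 1294 to 1936 in diesel exhaust sham and 2480 to 2831 in diesel exhaust TAC hearts. Pdgfra and Tcf21, which define the resident cells, had differences of 0.29 and 0.71 in filtered air and 0.48 and 0.53 after diesel exhaust, none of which passed. Scara5, the 1 marker of the 13 that fell, did so by 1.26 on the log2 scale after diesel exhaust (edgeR, adjusted p = 0.00393). Pi16 of the same list rose by 1.27 in filtered air (edgeR, adjusted p = 0.0271) and by 1.29 after diesel exhaust (edgeR, adjusted p = 0.00992). These Pi16 calls were lost in 5 and 1 of the 12 fits that left out a library. Of 9 markers of activated fibroblasts, 4 rose in filtered air and 8 after diesel exhaust. Cilp, with the smallest p, rose by 3.59 ± 0.33 and 4.22 ± 0.33, and Postn, the matrix protein periostin, by 2.94 ± 0.33 and 3.99 ± 0.34. The highest fold after diesel exhaust was that of Cthrc1 (4.4 ± 1.1, edgeR, adjusted p = 0.0277), a call lost in 4 of the 12 fits that left out a library, and Tnc, encoding tenascin C, rose by 2.98 ± 0.49 in filtered air. The ninth marker, the smooth muscle actin gene Acta2, had differences of -0.52 (adjusted p = 0.493) and -0.97 (adjusted p = 0.0518) and fell by 0.75 on the log2 scale averaged over exposure (edgeR, adjusted p = 0.0187), a call lost without diesel exhaust sham replicate 3. The 4 filtered air calls remained without TAC replicate 2. After diesel exhaust 5 of the 9 passed without sham replicate 2 or TAC replicate 1, and 4 without TAC replicate 3. Cilp, Postn and Tnc, like the gelatinase gene Mmp2, passed in both exposures whichever library was left out. The 9 markers summed to 103 to 133 and 130 to 147 CPM in the sham groups and 430 to 983 and 800 to 1153 CPM in the TAC groups. No marker of either list was at 0 in any group. The part of these markers in the result was not tested, and in whole hearts more cells of a type and more RNA per cell cannot be told apart. Col1a1, Col1a2 and Col3a1 stand in both the fibroblast and the collagen list.

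Of 8 markers of ventricular cardiomyocytes, which make up most heart RNA, 4 fell averaged over exposure, from -0.57 for Ryr2 to -0.74 for Tnni3. Tnni3 fell after diesel exhaust (-0.90 ± 0.24, edgeR, adjusted p = 0.0398, or 0.142 without sham replicate 2), and none passed in filtered air. This Tnni3 call was lost in 6 of the 12 fits that left out a library. The averaged cardiomyocyte count was 1 without filtered air sham replicate 1 and 2 without filtered air TAC replicate 2. Their summed level was 56636 to 76005 and 61626 to 72692 CPM in the sham groups and 38091 to 62121 and 40339 to 46146 CPM in the TAC groups. None of the 6 endothelial markers passed, with sums of 536 to 624 CPM in sham and 617 to 730 CPM in TAC hearts. None of the 7 smooth muscle and pericyte markers passed within an exposure, while Pdgfrb rose (0.47 ± 0.11) and Acta2 fell averaged over exposure. Their sums were 272 to 337 and 286 to 407 CPM. Of 7 macrophage markers 1, Mrc1, rose after diesel exhaust (0.68 ± 0.18, edgeR, adjusted p = 0.0442, or 0.105 without sham replicate 2). This Mrc1 call was lost in 8 of the 12 fits that left out a library. Averaged over exposure 3 rose, Mrc1, Csf1r and Ptprc. That count was 5 without diesel exhaust sham replicate 2, where Ptprc did not pass. The macrophage sum was 141 to 250 CPM in sham and 194 to 267 CPM in TAC hearts. Of 13 tendon, cartilage and bone markers, known sites of Omd, Fmod and Aspn, 4 were tested and 0 passed within an exposure by edgeR. Averaged over exposure 1, the transcription factor gene Sox9, rose by 1.51 ± 0.39 (edgeR, adjusted p = 0.0182), a call lost without filtered air TAC replicate 2, diesel exhaust sham replicate 1 or diesel exhaust TAC replicate 3. Their summed level was 5.87 to 7.94 CPM in sham hearts and 10 to 25.1 CPM in TAC hearts, and the bone markers Bglap and Sp7 and the cartilage marker Matn1 were at 0 in all groups. Of 6 mesothelial markers 4 were tested and 0 passed, and they summed to 4.76 to 17.8 CPM over all hearts. The part of these cells in the result was not tested.

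The genes most like each member were found among 12975 genes by the root mean square difference of centred log2 CPM over the 12 libraries, a description that follows the groups and any shared feature of the libraries. Nearest to Dcn was Cd34 (0.16). The nearest genes were, to Bgn, Fstl1 (0.17) and Adamts2 (0.20), to Lum, Mgp (0.20) and Lhfpl2 (0.21), and to Prelp, Col6a2 (0.15) and Emilin1 (0.19). Aspn lay nearest to Top2a (0.33) and Serpinb1a (0.35), Omd to Plek (0.33) and Thbs1 (0.36), and Fmod to Frem1 (0.43) and Kif23 (0.53). Nearest to Ogn were Gm4705 (0.15) and Txlng (0.15), neither of which passed with TAC within an exposure. Among the 8 genes themselves the closest pair was Dcn and Prelp (0.29) and the farthest Fmod and Ogn (1.22). Fmod and Omd had the lowest counts of the 8, and the part of this in their differences from other genes was not tested.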

How the data were processed

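RNA of 12 frozen hearts was depleted of ribosomal RNA and sequenced on Ion chips, per the labels' protocols. The deposited values are raw counts per gene number, made by the authors with cutadapt 1.6, Subread 1.4.2 and featureCounts on mm10, per the submitters' processing notes. The sources used here do not give the strand setting or annotation version. Symbols came from RefSeq GRCm38.p6 for 25275 genes and GENCODE M21 for 18. No library was a copy of another. In R 4.3.3, edgeR 4.0.16 was run with TMM scaling, a count minimum of 10, and 1 robust quasi-likelihood fit of the 4 groups over all 12 libraries with 8 residual degrees of freedom, tested on simulated data. DESeq2 1.42.0, limma voom 3.58.1, other filters and scalings, and leaving out each library were alternatives. Ratios were tested by exact permutation over libraries. The 8 genes and all lists were chosen with earlier results of these data known. From each list, genes past the threshold in a TAC comparison were named, at most 4 with the smallest p, and others named were chosen after their values were seen. The 2 nearest genes were named per family gene, except that 1 of them is not reported here.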

Additional observations from a re-analysis of the deposited data

How the results depend on the processing

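In filtered air the number of the 8 genes past the threshold with TAC was 4, and 2 with only the 2 groups compared in the fit. It ran from 1 to 5 when 1 library was left out, where fewer samples entered the fit. The 7 other settings gave 3 to 6. After diesel exhaust the number was 6, 4 to 6 without a library and 5 or 6 otherwise. The exposure comparisons gave 0 of the 8 under every setting run. Over all genes, TAC calls in filtered air were 113 with all libraries, 258 by DESeq2, 247 without the filter on low counts and 39 to 143 without a library. After diesel exhaust they were 442, against 676 by DESeq2 and 188 to 530 without a library. Averaged over exposure they were 1091, and 631 to 1213 without a library.

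Some log2 differences that passed no test changed sign when a library was left out. The TAC difference of Ogn in filtered air ran from -0.25 to 0.23. The diesel exhaust difference of Bgn in sham hearts ran from -0.24 to 0.034. In TAC hearts the diesel exhaust difference of Dcn ran from -0.084 to 0.39, Ogn from -0.32 to 0.16 (0.0018 by limma voom), Aspn from -0.066 to 0.56 and Omd from -0.54 to 0.10. The interaction for Omd ran from -0.057 to 0.60. The cause was not tested. Leaving out a library, an alternative chosen after seeing the data for the gene lists, gave 0 to 4 fibrillar collagens higher in filtered air and 2 to 5 after diesel exhaust. It gave 0 to 4 and 3 to 5 fibroblast markers, 3 to 5 and 4 to 8 activated fibroblast markers, and 0 to 3 and 3 to 5 binding ligands and receptors. Averaged over exposure 1 to 4 cardiomyocyte markers were lower. No TAC difference of the other 7 genes changed sign under any setting run. Another scaling moved the median of all genes by under 0.1 on the log2 scale. The ratio of Bgn to Dcn kept its direction and its side of the threshold in every setting. Depth limits Omd and Fmod most, and Omd gave no value at a count minimum of 30 or, with only the 2 groups compared in the fit, for TAC after diesel exhaust and for diesel exhaust in sham hearts.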
